A study of Mus musculus with 4 samples.

Results

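The enzymes that place and remove methyl groups on histones were read out in mouse T cells as messenger RNA levels. The members are the genes whose symbols start with Kmt, Kdm, Setd, Nsd, Suv39h, Ehmt, Dot1l or Prmt, followed only by digits and lower-case letters, with genes of the X and Y chromosomes left out. The names matched 55 genes, of which 5 lay on the X or Y chromosome, and the other 50 of the 50600 genes in the files form the set. They comprise 48 protein-coding genes, the pseudogene Kdm4dl and Kdm6bos, a transcript antisense to the demethylase gene Kdm6b. The rule selects by name. It therefore misses enzymes named otherwise, such as Ezh2 and Carm1, and it takes in SET domain genes whose proteins are not known mainly for acting on histones, such as Setd3.

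Histone methylation is written by SET domain proteins, by Dot1l and by the arginine methyltransferases, all of which take the methyl group from S-adenosylmethionine. It is erased by flavin-dependent amine oxidases and by iron- and oxoglutarate-dependent JmjC domain enzymes. Methylation of H3K4 (lysine 4 of histone H3) and of H3K36 and H3K79 is known mainly from active genes, methylation of H3K9, H3K27 and H4K20 mainly from repressed chromatin. In helper T cells these marks are known to help hold cytokine and lineage genes active or silent.

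RNA was sequenced from 4 biological replicates of primary T cells of mice of the inbred C57BL/6NJ strain, and the labels give no other group, no treatment, an unknown age and no sex. The labels link a protocol for differentiating CD4+ T cells, and names within the file headers add Th0 (activation without polarising cytokines), activated and 48h, which the labels do not state. The assay title is total RNA-seq, and the library protocol linked beside it is one for polyadenylated RNA. Counts assigned to genes were 56904311, 45110199, 127755788 and 53379135 in replicates 1 to 4, a 2.83-fold range, so replicate 3 carries the least counting error. The comparisons the design allows are those between genes and those between replicates.

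All 8 T cell markers tested were above 1 CPM (counts per 1000000 counts assigned to genes), at a summed 2892 to 2966 CPM per library with Cd4 at a mean of 931 CPM. Of the CD8 genes, Cd8a was below 1 CPM and Cd8b1 above it, at a summed 8.861 to 10.7 CPM. Markers of B cells summed to 1.724 to 3.214 CPM with 0 of 5 above 1 CPM. Myeloid markers summed to 2.261 to 3.146 CPM with 1 of 6 above, and natural killer cell markers to 1.898 to 2.948 CPM with 1 of 4 above. Dendritic, erythroid and gamma-delta T cell markers had 0 above 1 CPM among 4, 4 and 3 genes. In bulk RNA, fewer cells of a type and less RNA per cell cannot be told apart.

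The libraries stood apart in sex-linked genes although their labels name the same donor. Xist, the noncoding RNA of the inactive X chromosome, was at 135 and 146 TPM in replicates 1 and 2 and at 0.165 and 0.373 TPM in replicates 3 and 4 (TPM is the count per exon base, scaled so that all genes of a library sum to 1000000). The Y-linked demethylase gene Kdm5d was at 0.0316, 0.035, 11.88 and 11.17 TPM in replicates 1 to 4. The main counts, medians and sums for the members are therefore also given for replicates 1 and 2 alone and for replicates 3 and 4 alone. The labels call the libraries biological replicates and do not say how many animals they came from, so each p-value below speaks only of the spread among these 4 libraries.

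Nearly all of the members were expressed. Of the 50 members, 46 were above 1 CPM by a one-sided limma test with Benjamini-Hochberg adjustment over 23365 genes, and the highest adjusted p among them was 9.6e-14. The background is 47.4% of all genes with a count and 69.3% of the 15076 protein-coding genes. The same 46 were also above 10 CPM (highest adjusted p 1.05e-07, limma), as were 36.4% of all genes and 55.6% of protein-coding genes. The other 4 members, Prmt8, Kdm4d, Kdm4dl and Kdm6bos, were below 1 CPM, with limma's adjusted p between 4.83e-10 and 7.47e-08, where 48.3% of all genes were below it. In replicates 1 and 2 alone, 47 members had a count, of which 46 were above 1 CPM and 1, Prmt8, was below it. Kdm4d, Kdm4dl and Kdm6bos had no count there and were not tested. Of all 20169 genes tested there, 10966 were above and 7667 below. In replicates 3 and 4 alone, 46 members were above and 4 below, against 11130 and 10434 of 22535 genes.

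The members' median level was 40.1 TPM, against 14.2 TPM over protein-coding genes with a count and 1.801 TPM over all genes with a count. It was 38.3 TPM in replicates 1 and 2 and 41.2 TPM in replicates 3 and 4. Among the 46 expressed members the means ran from 18.1 to 522 CPM, and 27 had a mean over 100 CPM. Per exon length they ranged from 13.2 TPM for Setd4 to 437 TPM for Prmt1, between percentiles 48.9 and 97.8 of the protein-coding genes. The 50 members held 0.624% of all counts. Of their summed TPM, 30.5% came from Prmt1, Prmt5 and Dot1l.

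**Figure D1:**
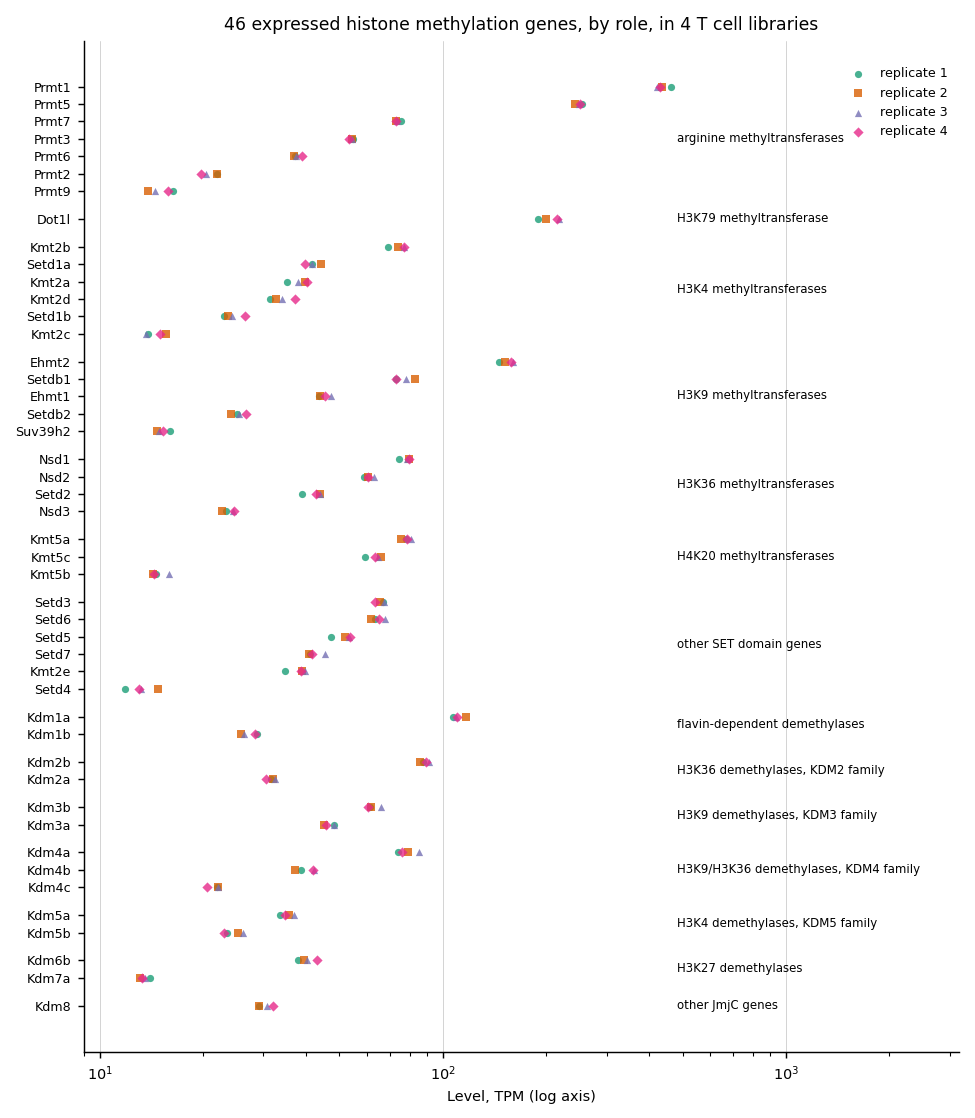
Level of each of the 46 members above 1 CPM in every library, in TPM on a log axis; each point is a library and genes are grouped by role. The 4 points of a gene lie close together, and Prmt1, Prmt5 and Dot1l lie highest, at means of 437, 249 and 206 TPM.

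Promoter sequence was compared within the KDM4 family, since its members spanned the widest range of levels of any demethylase family in the set, from Kdm4a at a mean of 78.7 TPM through Kdm4c at 21.8 TPM to Kdm4d at 0.0341 TPM. The 250 bases before the annotated start of each gene follow, from RefSeq on GRCm38.p6 (the assembly of mm10), 5′ to 3′ on the gene's strand, with each CpG dinucleotide in capitals. They lie at chr4:118180044-118180293 on the minus strand for Kdm4a, chr4:74242247-74242496 on the plus strand for Kdm4c and chr9:14500483-14500732 on the minus strand for Kdm4d.
Kdm4a: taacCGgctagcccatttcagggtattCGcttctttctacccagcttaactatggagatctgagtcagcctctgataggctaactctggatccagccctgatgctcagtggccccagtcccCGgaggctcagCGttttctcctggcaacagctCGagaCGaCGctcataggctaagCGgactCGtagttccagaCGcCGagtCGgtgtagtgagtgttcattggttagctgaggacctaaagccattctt
Kdm4c: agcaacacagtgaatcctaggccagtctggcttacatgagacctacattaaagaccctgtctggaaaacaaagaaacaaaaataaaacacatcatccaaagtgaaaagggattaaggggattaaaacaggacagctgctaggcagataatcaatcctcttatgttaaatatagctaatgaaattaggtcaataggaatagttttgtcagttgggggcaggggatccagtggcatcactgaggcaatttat
Kdm4d: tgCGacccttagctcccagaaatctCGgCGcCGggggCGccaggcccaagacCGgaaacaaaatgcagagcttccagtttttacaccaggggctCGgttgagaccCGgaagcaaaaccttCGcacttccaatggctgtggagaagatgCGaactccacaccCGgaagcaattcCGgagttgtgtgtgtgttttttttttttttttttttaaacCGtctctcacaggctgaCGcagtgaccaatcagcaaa

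The Kdm4a stretch held 12 CpG dinucleotides (0.67 of the number that its C and G content would give), and that of Kdm4d, the gene with 13 counts over all libraries, held 14 (0.84). The printed Kdm4c stretch held 0 CpG. A second RefSeq window of Kdm4c, at chr4:74251629-74251928, held 28 CpG in 300 bases, with an observed to expected ratio of 0.89, and which start these cells used is not shown by counts per gene. The Kdm4d stretch thus held slightly more CpG than that of Kdm4a, the gene with the higher level. Kdm4c cannot be placed beside them, since its windows differ. Whether CpG content bears on the levels was not tested. No window was given for Kdm4b, which was therefore not compared.

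Windows of 300 bases (250 before and 50 after the start) were given for 37 of the 50 members. Of these, 35 had an observed to expected CpG ratio over 0.6, as had 49.8% of 16469 protein-coding genes with a window and 77.3% of the 8412 of them above 1 CPM. The 2 below the ratio were the first Kdm4c window and that of Setd5 (0.09), which lies 27570 bases from the start of Setd5 in the files' annotation. The members' median was 26 CpG per window, against 14 and 22 in those gene sets. The window of Prmt8, which was not expressed, held 43 CpG at a ratio of 0.94, and that of Prmt1, the highest member, held 17 at a ratio of 0.72. The Prmt8 and Prmt1 windows lie 313 and 148 bases from the annotated gene starts. A CpG-dense window was therefore found for expressed members and for Prmt8 and Kdm4d, the only unexpressed members with a window.

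Motifs were searched on both strands of the 37 windows as fixed letters. The ETS core CCGGAAG was in 8 windows (21.6%), against 12.4% of protein-coding genes with a window and 21% of those above 1 CPM, and the Kdm4d window held 2 matches. The E-box CACGTG was in 3 windows (8.11%), against 8.11% and 10.7%. The E2F-type motif TTCCCGCC was also in 3 (8.11%), against 3.04% and 4.66%. The NRF1 motif, searched as its fixed consensus, was in 0 windows, against 1.38% and 2.35%. None of these 4 motifs contains another. Each share is a count of letters in a window and not of bound sites.

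The arginine methyltransferase genes included the highest levels of the whole set. Prmt1, the main enzyme of asymmetric arginine dimethylation, was at 462, 435, 420.5 and 431 TPM in replicates 1 to 4, a mean of 437 ± 17.8 TPM (SD, n = 4). It is annotated at chr7:44975989-44986568 on the minus strand (mm10, as in the files). Prmt5, the main enzyme of symmetric dimethylation, was at 254, 243, 249 and 250.5 TPM. In every library Prmt1 was above Prmt5, and their log2 ratio of TPM was 0.81 ± 0.05.

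Prmt7, which adds single methyl groups to arginine, was at 75.4, 73, 73.7 and 73.1 TPM, below Prmt5 by a log2 ratio of 1.76 ± 0.02 (1.13 in CPM). Prmt3, an enzyme known for a ribosomal protein substrate, was at 54.8, 54.4, 54.4 and 53.2 TPM, and had the lowest spread of all expressed members, a coefficient of variation of 1.561% in CPM. Prmt6, a nuclear enzyme that acts on histone H3, was at 37.2, 36.8, 37.4 and 38.9 TPM, below Prmt3 by a log2 ratio of 0.53 ± 0.05. These 3 genes thus kept 1 order in all 4 libraries. Of the Prmt6 exon bases 23.4% lie opposite exons of C130013H08Rik. The counting was stranded, so those reads can be told apart by strand.

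Prmt2 and Prmt9 had means of 21 and 15.1 TPM. Prmt8, a membrane-anchored enzyme known mainly from neurons, had 2, 0, 3 and 6 counts in replicates 1 to 4. A count of 0 in replicate 2 allows up to 0.067 CPM, the level of 3 counts there. Per exon base over the summed libraries, Prmt1 was 8819-fold above Prmt8 (95% Poisson interval 4929 to 17670, counting error only). The family therefore held both the highest member and 1 of the 2 protein-coding members below 1 CPM.

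The H3K4 methyltransferase genes were all expressed, at a median of 36 TPM. Over all annotated exon bases Kmt2b was the highest of the 6, at 69, 74.2, 77.2 and 76.8 TPM. Its close relative Kmt2a, which like Kmt2b works with menin, was at 35.1, 39.6, 37.8 and 40.2 TPM, and lower than Kmt2b in every library (log2 ratio −0.96 ± 0.05). The mean of Kmt2a was thus 0.514 of that of Kmt2b per exon length, while in CPM the log2 ratio was only −0.16.

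Kmt2c and Kmt2d form the pair known for H3K4 monomethylation at enhancers. Kmt2d was at 31.4, 32.7, 34 and 37.1 TPM, and Kmt2c was lower in every library, at 13.8, 15.6, 13.7 and 15 TPM (log2 ratio −1.21 ± 0.12). The highest Kmt2c value lay well under the lowest Kmt2d value. Both have coding sequences longer than those of all other members, and per coding length Kmt2c was the lowest of the 46 expressed members.

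Setd1a and Setd1b encode the catalytic subunits of the complexes known for bulk H3K4 trimethylation. Setd1a was at 41.5, 44, 41.7 and 39.8 TPM and Setd1b at 23, 23.8, 24.3 and 26.4 TPM, a log2 ratio of 0.78 ± 0.13. In CPM, without length correction, that ratio was −0.05, so the order of the pair was not the same on each scale. Of the 6795 exon bases of Setd1a, 51.8% are shared on the same strand with Gm49388, a gene with 53 counts in all. Reads on shared bases may have been left unassigned by the counting, which was not tested. The CPM of Setd1a would in that case be too low as well. Over the 3272 free bases alone the level of Setd1a would be 86.8 ± 3.636 TPM, if no read on shared bases was counted, and its log2 ratio to Setd1b 1.83. Setd1a would then stand above Kmt2b, whose mean was 74.3 TPM.

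Dot1l, the only known H3K79 methyltransferase, was at 190, 199, 219 and 215 TPM in replicates 1 to 4, a mean of 206 ± 13.5 TPM. It had the highest count level of the set, 522 ± 30.9 CPM. In the order by TPM it stood below Prmt5 (log2 ratio 0.28 ± 0.1 in favour of Prmt5) and above Ehmt2 (0.42 ± 0.04) in all 4 libraries. Dot1l is annotated at chr10:80755206-80795461 on the plus strand.

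Among the H3K9 methyltransferase genes Ehmt2 stood well above the rest. Ehmt2 and Ehmt1 encode G9a and GLP, which work as a heterodimer in mono- and dimethylation of H3K9. Ehmt2 was at 146, 152, 160 and 158 TPM and Ehmt1 at 43.6, 44, 47.3 and 45.3 TPM, a log2 ratio of 1.77 ± 0.03, or 3.42-fold. The log2 ratio was smaller in CPM (1.21) and per coding length (1.24). The 2 transcripts were thus unequal in level on each scale, and their TPM ratio was nearly the same in all libraries.

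Setdb1, which is known for silencing retroelements together with Trim28, was at 73.1, 82.8, 78.1 and 73.2 TPM. Its relative Setdb2 was at 25.2, 24.2, 25.4 and 26.8 TPM, lower by a log2 ratio of 1.59 ± 0.14 (2.35 in CPM). Suv39h2, an enzyme of heterochromatic H3K9 trimethylation, was at 16, 14.7, 14.9 and 15.3 TPM and was the lowest of this group (log2 ratio of Setdb1 to Suv39h2 2.32 ± 0.13, with 2.96 in CPM and 1.51 per coding length). Its X-linked counterpart Suv39h1, which the rule leaves out, was at 84.6, 92.1, 92.8 and 86 TPM.

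The H3K36 methyltransferase genes ranged from 23.8 to 78.1 TPM. Setd2, the enzyme known for trimethylating H3K36 behind elongating RNA polymerase, was at 39, 43.8, 43.9 and 42.6 TPM. Nsd1, which mono- and dimethylates H3K36, was at 74.7, 79.6, 78.5 and 79.5 TPM, above Setd2 in every library (log2 ratio of Setd2 to Nsd1 −0.88 ± 0.04). Nsd1 was thus the higher of these 2 genes, and also by CPM (−1.13) and per coding length (−1.05).

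Nsd2 was at 59, 60.7, 62.9 and 60.6 TPM, and Nsd3 at 23.4, 22.8, 24.4 and 24.6 TPM. The log2 ratio of Nsd1 to Nsd3 was 1.71 ± 0.06 in TPM and 0.45 per coding length. Nsd1 exceeded Nsd2 by a log2 ratio of 0.36 ± 0.04 in TPM, but the ratio was −0.03 in CPM and −1.01 per coding length, since the annotated exons of Nsd2 cover 16803 bases for a coding sequence of 4098. The order of Nsd1 and Nsd2 therefore depended on the length that was used.

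The H4K20 methyltransferase genes were split in level. Kmt5a, the H4K20 monomethylase, was at 77.9, 75.4, 80.6 and 78.6 TPM. Of the 2 enzymes of the further steps, Kmt5c was at 59.3, 66, 64.7 and 63.4 TPM and Kmt5b at 14.6, 14.3, 16 and 14.4 TPM, a log2 ratio of Kmt5b to Kmt5c of −2.09 ± 0.09. Kmt5a exceeded Kmt5b by a log2 ratio of 2.39 ± 0.05 in TPM and 0.99 in CPM. Kmt5b was the low gene of the 3 in every library, also without length correction (log2 ratio to Kmt5c −0.28 in CPM, and −1.19 per coding length).

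The other SET domain genes of the set were all above 1 CPM. Setd3, known as a histidine methyltransferase of actin, had a mean of 65.9 ± 1.761 TPM, and 30.8% of its longest transcript matches Gm14026 at 98% identity, so its reads may be split. Setd6, known for methylating the NF-κB subunit RelA, was at 64.6 ± 2.54 TPM, Setd5 at 51.5 ± 2.997 TPM and Setd7, which methylates H3K4 and other proteins in vitro, at 42.2 ± 2.165 TPM. Kmt2e, which carries a SET domain without known activity on histones, was at 38 ± 2.266 TPM. Setd4 was the lowest of the 46 expressed members at 13.2 ± 1.216 TPM, and also the one with the widest spread, a coefficient of variation of 9.161% in CPM.

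Of the flavin-dependent demethylase genes, Kdm1a (LSD1, an H3K4 demethylase of the CoREST complex) was at 107, 117, 109 and 110 TPM. Its relative Kdm1b was at 28.8, 25.9, 26.4 and 28.4 TPM. The log2 ratio was 2.01 ± 0.12, and was 2.11 in CPM and 2.03 per coding length. Kdm1a was thus about as far above Kdm1b on each scale, and in TPM it was the highest demethylase gene of the set. In CPM (167 against 279.9) and per coding length (76.3 against 85.3) it stood below Kdm2b.

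In the KDM2 family of H3K36 demethylases, Kdm2b, which also brings a Polycomb complex to CpG islands, was at 87.4, 85.8, 91.1 and 89.3 TPM. Kdm2a was at 31.6, 32.1, 32.4 and 30.6 TPM (log2 ratio of Kdm2a to Kdm2b −1.48 ± 0.05). In the KDM3 family, which removes H3K9 mono- and dimethylation, Kdm3b was at 61.6, 61.6, 66 and 60.6 TPM and Kdm3a at 48.4, 45.2, 48.1 and 45.6 TPM. Kdm3b was the higher in TPM (log2 ratio of Kdm3a to Kdm3b −0.42 ± 0.05), and Kdm3a the higher per coding length (0.21). The Kdm2 order, in contrast, was the same on the 3 scales, at −1.09 in CPM and −0.91 per coding length.

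Enzymes of the KDM4 family demethylate trimethylated H3K9, and Kdm4a, Kdm4b and Kdm4c act on H3K36 as well. Of the 5 family members here, which include the pseudogene Kdm4dl, 3 were expressed. Kdm4a was at 74, 79.4, 85.4 and 75.9 TPM. Kdm4b was at 38.7, 37.1, 42.3 and 41.9 TPM (log2 ratio of Kdm4a to Kdm4b 0.97 ± 0.1), and Kdm4c at 22, 22.2, 22.1 and 20.6 TPM (1.85 ± 0.08). The descending order Kdm4a, Kdm4b, Kdm4c was seen in all 4 libraries.

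Kdm4d, a relative with known expression in testis, had 0, 0, 12 and 1 counts, and the 0 counts allow up to 0.053 CPM in replicate 1 and 0.067 CPM in replicate 2. Per exon base over the summed libraries Kdm4a was 1454-fold above it (95% Poisson interval 850.1 to 2730, counting error only). The pseudogene Kdm4dl had 0, 0, 3 and 0 counts. Most counts of Kdm4d and all of Kdm4dl came from replicate 3, which was also the most deeply sequenced library. Scaled to depth, Kdm4d was at 0, 0, 0.0939 and 0.0187 CPM in replicates 1 to 4. The cause of this difference was not tested.

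Kdm5a and Kdm5b, autosomal enzymes that remove H3K4 trimethylation, lay close together. Kdm5a was at 33.6, 35.7, 36.8 and 34.7 TPM and Kdm5b at 23.5, 25.3, 26.1 and 23.1 TPM, a log2 ratio of 0.52 ± 0.04. Kdm5a was above Kdm5b in all 4 libraries. The X-linked Kdm5c, outside the set, was far above both, at 207, 217.5, 154.5 and 150.1 TPM, with the higher pair in replicates 1 and 2.

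Kdm6b, which removes H3K27 trimethylation and is known to be induced in activated immune cells, was at 38, 39.3, 40.3 and 43.2 TPM. Kdm7a, which acts on dimethylated H3K9 and H3K27, was at 14, 13.1, 13.6 and 13.3 TPM (log2 ratio 1.56 ± 0.11, and 0.23 per coding length). The antisense transcript Kdm6bos had 0, 0, 0 and 1 counts, and 34% of its exon bases lie opposite Kdm6b. The X-linked Kdm6a, outside the set, was at 43.8, 46.6, 26.9 and 24.9 TPM, above Kdm6b in replicates 1 and 2 and below it in replicates 3 and 4. Kdm8, a JmjC protein whose activity on histones has been questioned, was at 30.3 ± 1.402 TPM.

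Over all 23 pairs of related genes, the first gene was higher in 4 of 4 libraries in 17 and the second in 6, with 0 pairs of mixed order. With 4 libraries the exact two-sided sign-flip test cannot go below 2 of 16 sign patterns, which every pair reached, so it cannot pass 0.05 and the ratios are descriptions. In CPM the first gene was higher in all 4 libraries in 15 pairs and per coding length in 16. On both of these scales 1 pair, Setd1a with Setd1b, was of mixed order, with Setd1a higher in 2 libraries by CPM and in 3 per coding length. The pairs whose mean ratio changed direction on either scale were Setd1a with Setd1b, Nsd1 with Nsd2 and Kdm3a with Kdm3b.

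**Figure D2:**
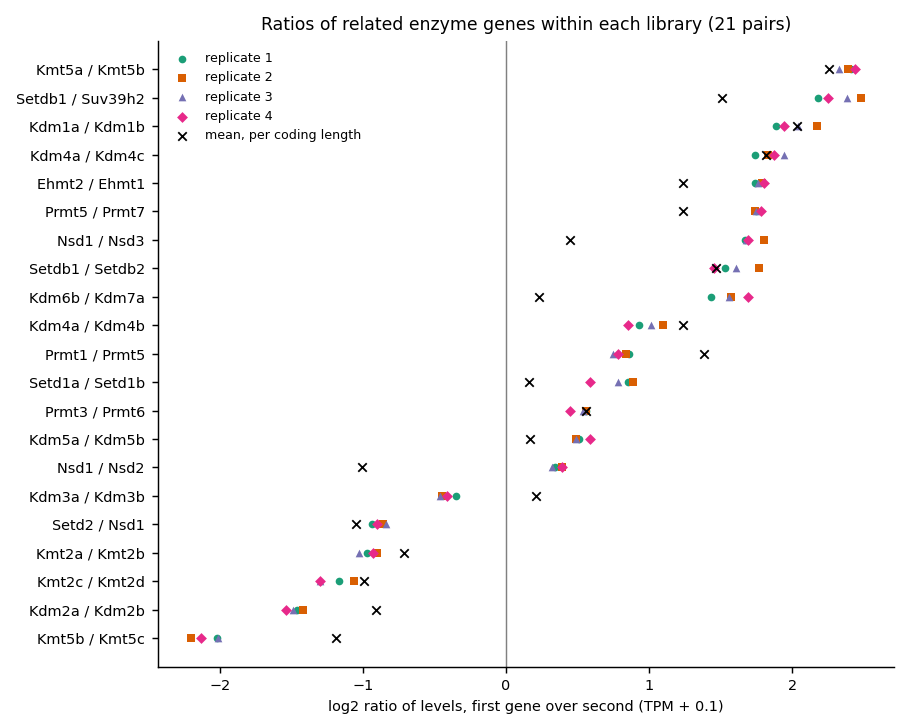
Log2 ratio of TPM + 0.1 of the first gene over the second for the 21 pairs in which both genes were above 1 CPM; coloured points are libraries and crosses are means per coding length. The libraries lie close together for each pair, while the cross falls on the other side of 0 for Nsd1 over Nsd2 (−1.01) and Kdm3a over Kdm3b (0.21).

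The length used for correction moved single members more than the replicates did. The exons of the 46 expressed members covered 1903 to 20291 bases with a median of 6904, against 4163 over the 11081 genes above 1 CPM. Setd7 was at a mean of 42.2 TPM but at 145 per coding length (scaled like TPM), since its exons cover 10813 bases for a coding sequence of 1098. Kmt2d went the other way, from 33.8 TPM to 13.98 per coding length. Prmt1 and Prmt5 were first and second on both scales.

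**Figure D3:**
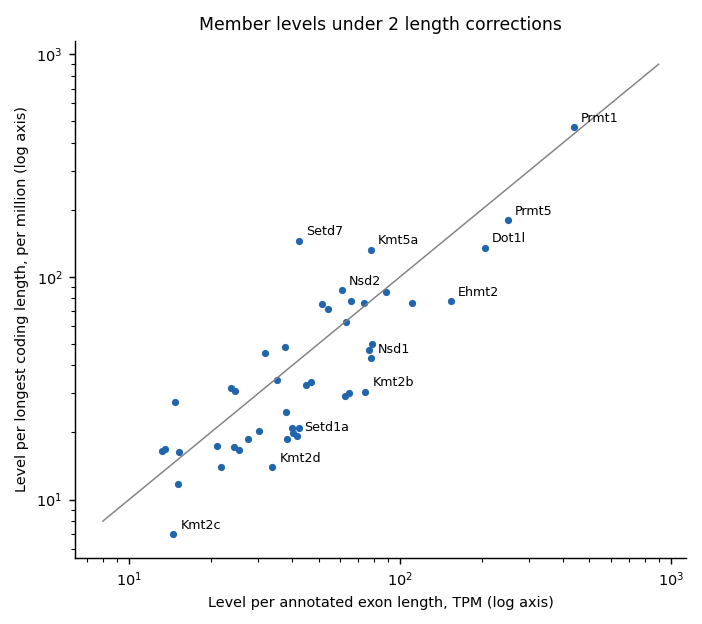
Mean level of each expressed member per longest coding length (scaled like TPM, log axis) against its TPM (log axis); the line marks equal values. Setd7 (42.2 TPM, 145 per coding length) and Kmt5a lie far above the line and Kmt2c and Kmt2d below it.

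Summed over the members that act on a site, writers and erasers were within 1.5-fold of each other in TPM at H3K4, H3K9 and H3K36. At H3K4 the 6 methyltransferase genes summed to 227 ± 9.195 TPM and the 4 demethylase genes to 198 ± 4.417 TPM, a log2 ratio of 0.20 ± 0.05. At H3K9 the 5 writers summed to 317 ± 9.239 TPM and the 7 erasers to 263 ± 9.574 TPM (0.27 ± 0.04). At H3K36 the 4 writers summed to 205 ± 6.069 TPM and the 5 erasers to 260.5 ± 8.684 TPM (−0.35 ± 0.04). Kdm4a, Kdm4b and Kdm4c count as erasers at both H3K9 and H3K36. These are sums of RNA and not of enzyme activity.

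The direction of these site ratios depended on which genes and which length entered. Adding Kdm5c to the H3K4 erasers turned the log2 ratio to −0.74 ± 0.17, and it was −0.9, −0.87, −0.63 and −0.56 in replicates 1 to 4. The Y-linked Kdm5d, at 11.88 and 11.17 TPM in replicates 3 and 4, was not added. Adding Suv39h1 to the H3K9 writers and Phf8, Phf2 and Jmjd1c to the erasers gave −0.02 ± 0.02. Adding Ash1l to the H3K36 writers gave −0.27 ± 0.04, the same direction as before. In CPM the H3K4 ratio was 0.85 ± 0.07 (1.798-fold) and the H3K36 ratio 0.39 ± 0.03, and per coding length the H3K4 ratio was −0.58 ± 0.05. For the members alone, in TPM, the ratios at H3K4, H3K9 and H3K36 were 0.16, 0.26 and −0.34 in replicates 1 and 2 and 0.24, 0.27 and −0.35 in replicates 3 and 4.

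**Figure D4:**
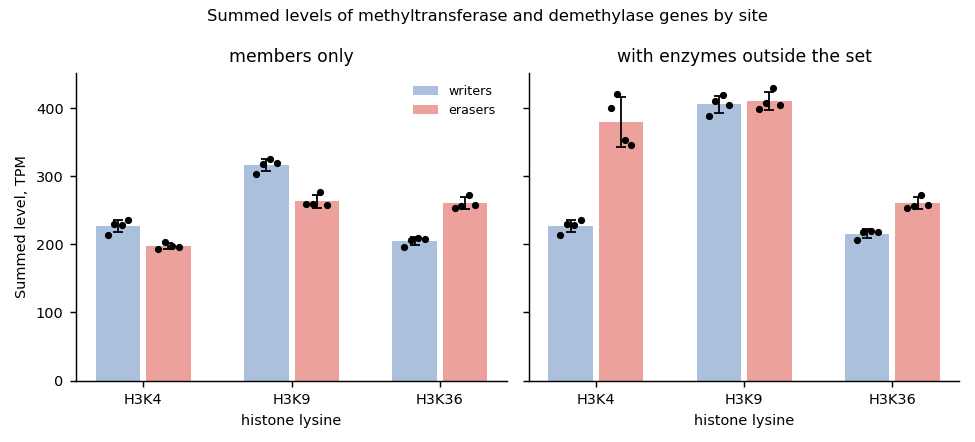
Summed TPM of methyltransferase genes (writers) and demethylase genes (erasers) for 3 lysines of histone H3; bars are means, error bars SD and points the 4 libraries, with members alone on the left and enzymes outside the set added on the right. The H3K4 erasers rise from 198 to 380 TPM when Kdm5c is added, and their 4 points then split into a higher and a lower pair.

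No expressed member was called variable between the replicates, a count near the background share and so not a result particular to them. Tested by edgeR's negative binomial goodness of fit, with trended dispersion and Benjamini-Hochberg adjustment over 13279 genes, 0 of the 46 members that passed the filter on low counts were more variable than genes of like abundance, against 0.437% of genes tested. Without adjustment 0 members had p under 0.05, against 5.75% of genes, and the lowest adjusted p of a member was 0.9999. With DESeq2's dispersion trend the count was also 0. Within replicates 1 and 2 alone, and within replicates 3 and 4 alone, it was 0 as well.

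The coefficient of variation of the 46 members had a median of 4.286% in CPM and ran from 1.561% to 9.161%, and the median over the 11081 genes above 1 CPM was 5.282%. The highest library of a member was 1.035 to 1.244 times its lowest. Ranked by TPM, 17 of the 45 neighbouring members differed by more than 1 SD of their log2 ratio. The first 6 of these 17 stand at the top of the order, where Prmt1, Prmt5, Dot1l, Ehmt2, Kdm1a, Kdm2b and Kdm4a followed each other in that order in every library. From Kdm4a through Kmt5a, Nsd1, Setdb1 and Kmt2b to Prmt7 no neighbours differed beyond their spread.

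Some, but not all, of the X-linked genes left out by the rule behaved differently in this test. Kdm6a and Kdm5c were called variable between the replicates (edgeR goodness of fit, adjusted p 9.205e-26 and 0.009947), both higher in replicates 1 and 2. Suv39h1 and Nsdhl, also X-linked, were not called (adjusted p 0.9999 for each in the same edgeR test). The difference in variability between these genes and the members was not itself tested.

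**Figure D5:**
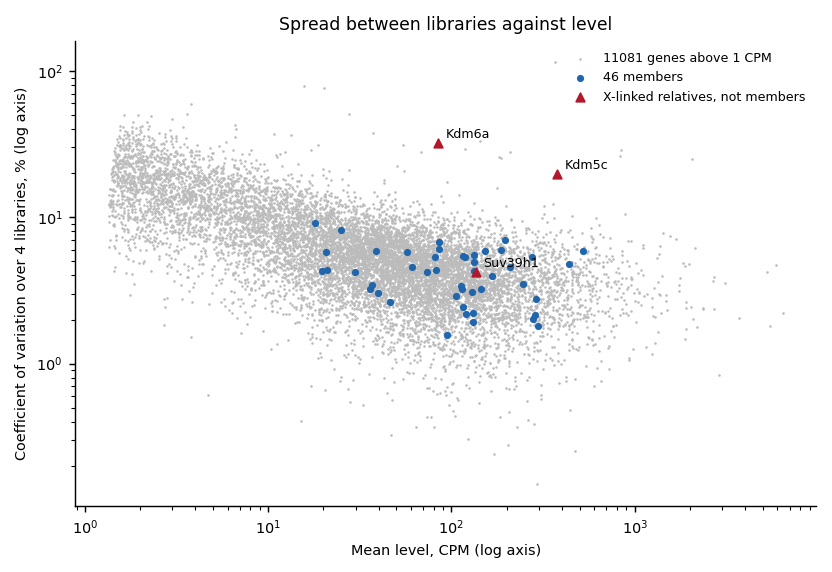
Coefficient of variation over the 4 libraries in percent against mean CPM, both on log axes, for 11081 genes above 1 CPM (grey), the 46 expressed members (blue) and 3 X-linked relatives outside the set (red). The members lie between 1.561% and 9.161%, and Kdm6a and Kdm5c lie above all of them.

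Genes outside the names of the set but of the same pathways were taken from 9 lists of 80 genes. Above 1 CPM by limma were 73, below it 4, and 3 had no count. The lists were put together with earlier results of these data known, and their counts are read against the same 47.4% of all genes and 69.3% of protein-coding genes as above.

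Of 14 other histone methyltransferase genes 12 were above 1 CPM, 1 below and 1 without a count. The highest were Carm1, an arginine methyltransferase known as PRMT4, at 159 ± 7.784 TPM, Smyd5 at 127 ± 4.311 TPM and Ezh2, the catalytic subunit of PRC2, at 124 ± 2.82 TPM. Smyd1, known from muscle, was below 1 CPM and Mecom had no count. Among members, only Prmt1, Prmt5 and Dot1l had a higher mean TPM than Carm1.

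Of 7 other JmjC genes 6 were above 1 CPM, led by Phf2 at 99.4 ± 3.668 TPM, Riox1 at 92.3 ± 5.058 TPM and Jmjd6 at 75.9 ± 1.963 TPM, and Hr was below. The COMPASS subunits, partners of the H3K4 methyltransferases, were above 1 CPM in 11 of 12 cases, led by Dpy30 at 168 ± 13.2 TPM, Wdr5 at 145 ± 2 TPM and Cxxc1 at 135 ± 4.309 TPM. Pagr1a was below 1 CPM, with 12 counts in all. The shared subunits Dpy30 and Wdr5 were above every H3K4 methyltransferase gene in mean TPM, but not in CPM, without length correction. Dpy30, at 47.8 CPM, was then below all of these genes, of which Setd1a was the lowest at 82.7 CPM. Wdr5, at 152 CPM, was below Kmt2b (208), Kmt2d (196) and Kmt2a (185).

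All 9 subunits of PRC2, the H3K27 methyltransferase complex, were above 1 CPM, led by Suz12 at 173 ± 7.549 TPM, Rbbp4 at 167 ± 2.103 TPM and Aebp2 at 113 ± 5.073 TPM. All 8 partners of the H3K9 methyltransferases were as well, with Trim28 at 655 ± 28.3 TPM, Cbx5 at 139 ± 4.431 TPM and Cbx1 at 90 ± 1.876 TPM. Trim28, the corepressor that recruits Setdb1, was above every member in mean TPM. All 7 genes of the DOT1L complex list were above 1 CPM, led by Mllt1 at 157 ± 3.246 TPM, Mllt6 at 82.4 ± 6.145 TPM and Mllt10 at 42.5 ± 2.412 TPM, each below Dot1l itself.

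All 9 CoREST complex genes were above 1 CPM, led by Hdac1 at 149.5 ± 3.616 TPM, Hdac2 at 96.2 ± 2.332 TPM and Rcor1 at 59.9 ± 3.966 TPM. The 4 PRMT5 cofactors were as well, with Clns1a at 131 ± 5.314 TPM, Riok1 at 68.9 ± 2.409 TPM and Wdr77, the obligate partner of PRMT5, at 67.5 ± 1.318 TPM. All of these cofactors were below Prmt5 itself. Of the 10 genes of the S-adenosylmethionine cycle, which supplies the methyl donor, 7 were above 1 CPM, led by Mat2a at 292 ± 6.638 TPM, Ahcy at 217.5 ± 8.334 TPM and Ahcyl1 at 92.6 ± 1.498 TPM. The liver genes Mat1a and Bhmt had no count, and Gnmt was below 1 CPM.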

How the data were processed

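Gene-level counts came from 4 RNA-seq libraries of 1 group, numbered by the labels. Per the file headers, the authors deposited raw counts, the read pairs that featureCounts 1.4.6-p4 assigned to the exons of each GENCODE M13 gene, with both ends mapped and strand option 2. The headers name STAR alignments; per the labels the build is mm10. Neither the version of STAR nor any trimming was given in the sources used here. Their command holds no option for reads that overlap several genes or map to several places. Each deposited table also has a Length column, a number of another kind, the summed exon bases per gene per the file headers.

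Symbols, biotypes and coding lengths came from GENCODE M21, matched for 50376 of 50600 gene IDs (99.6%). The 224 others took no more than 0.0092% of the counts in any library. CPM divides a count by the library total and TPM also by exon length. Neither unit was deposited. The level test was limma 3.58.1 on log2(CPM + 0.1), intercept only with trended empirical Bayes, one-sided against 1 CPM, with Benjamini-Hochberg adjusted p below 0.05 over 23365 genes with a count. edgeR's quasi-likelihood test was not run for the level in 1 group. Spread was tested with edgeR 4.0.16 (negative binomial goodness of fit, TMM factors 0.9956 to 1.005, 13279 genes after filterByExpr). DESeq2 1.42.0 was an alternative. Pair ratios are log2((TPM + 0.1) of the first over the second) within a library, and the pseudocount understates ratios to very low genes. Values after ± are SDs over the 4 libraries. A count of 0 was given a limit of 3 counts. Replicate pairs differed by more than counting noise (chi-square per degree of freedom 7.78 to 24.2), so no library was a copy of another. The level and goodness-of-fit tests were tested on simulated data.

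Every member may be named. Values per library are given for both genes of each fixed pair and for the highest 3 and the low members, and of the pathway lists the 3 highest by TPM and those not above 1 CPM are named. The members, lists and pairs were chosen with earlier results of these data known. Promoter windows came from RefSeq (GRCm38.p6), and exon overlaps from the GENCODE M13 exon coordinates deposited with the counts. Similar transcripts came from GENCODE M21 (blastn 2.17.0+, identity of at least 95%). Figures were drawn with matplotlib 3.10.9, under python 3.11.15 with scipy 1.17.1, numpy 2.4.6 and pandas 2.3.3, and the R version was 4.3.3.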

Additional observations from a re-analysis of the deposited data

Results flagged for a closer look

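Of 76 sets of 4 library values examined (the levels of the 50 members, the 23 pair ratios and the 3 site ratios), 5 had 1 library set apart from the other 3, by a gap to its nearest neighbour above Dixon's 95% critical value. Chance alone gives about 1 in 20. Kdm4c was at 20.62 TPM in replicate 4, with the others between 22.04 and 22.21 TPM. Kmt5b was at 15.99 TPM in replicate 3, with the others between 14.3 and 14.57 TPM. The log2 ratio of Nsd1 to Nsd3 was 1.8 in replicate 2, against 1.672 to 1.688 elsewhere. Kdm4dl was at 0.06873 TPM in replicate 3 from 3 counts, and Kdm6bos at 0.07642 TPM in replicate 4 from 1 count, both with 0 in the other libraries. A gene with counts in only 1 library is always flagged by this rule. The flags of Kdm4dl and Kdm6bos were therefore fixed in advance, and the rate of 1 in 20 does not apply to them.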

How the results depend on the processing

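The count of 46 members above 1 CPM was the same under all planned settings, with pseudocounts of 0.01 and 1, TMM or DESeq2 size factors, thresholds of 2 and 10 CPM, TPM in place of CPM, a DESeq2 Wald test, and without each replicate. The 4 members below 1 CPM became 0 when only genes passing filterByExpr were tested, which removes them, 2 with the DESeq2 Wald test, where the cause was not tested, and 1 in replicates 1 and 2 alone, an alternative chosen after seeing the data that tests fewer members. Without each replicate in turn the count was 3 to 4. The 0 variable members stayed 0 under every scaling, dispersion and filter tried. The median of 40.1 TPM was 30.51 per coding length and 38.26 TPM in replicates 1 and 2, and in CPM it was 113.3; without each replicate it was 39.27 to 40.72 TPM.

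The log2 ratio of writers to erasers at H3K4 (0.20) was 0.85 in CPM, 0.46 over exon bases free of other genes and −0.58 per coding length. It was −0.74 with Kdm5c added to the erasers. At H3K9 (0.27) the ratio was 0.13 in CPM, 0.21 per coding length and −0.02 with Suv39h1, Phf8, Phf2 and Jmjd1c added. At H3K36 (−0.35) it was 0.39 in CPM, −0.24 per coding length and −0.27 with Ash1l added. Without each replicate the ratios were 0.18 to 0.22, 0.25 to 0.28 and −0.36 to −0.33. Of 253 pair ratios under other settings 4 changed sign, and 0 of the 138 that left out libraries. The 4 were Setd1a over Setd1b in CPM (−0.05), Nsd1 over Nsd2 in CPM (−0.03) and per coding length (−1.01), and Kdm3a over Kdm3b per coding length (0.21). Length is the only choice changed in these. For Setd1a, reads on bases shared with Gm49388 may also be missing from the counts on every scale, which was not tested. A planned coding length from RefSeq proteins was not run; that of GENCODE M21 was chosen in its place after seeing the data, as was the setting of free bases. No paired analysis was possible because there is only 1 group. The exact level of genes under about 3 counts per library cannot be given at this depth, though limma placed such members below 1 CPM.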

Other observations

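Of the genes that the names match but the rule leaves out, Nsdhl, which encodes a sterol enzyme and no histone methyltransferase, was at 69.1, 62, 63.7 and 58.7 TPM in replicates 1 to 4. The Y-linked genes Uty, Ddx3y and Eif2s3y were at 11.97, 45.1 and 47.3 TPM in replicate 3 and at 0.0245, 0.115 and 0.101 TPM in replicate 1. The expressed members, all autosomal, had their lowest CPM in replicate 1 in 17 cases, in replicate 2 in 14, in replicate 3 in 6 and in replicate 4 in 9.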
